A study of Mus musculus with 4 samples.

Results

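The Ms4a family members Ms4a7, Ms4a4a, Ms4a6b, Ms4a6c and Ms4a6d were described in monocytes and macrophages of the mouse colon. These 5 genes were chosen by name from the 19 genes with an Ms4a symbol among the 28692 genes of the table, with earlier results of these data known. Single-cell RNA-seq had been performed on 4 male C57/Bl6N mice, of which 2 received 12 µg diesel exhaust particles (DEP) in 200 µL phosphate-buffered saline (PBS) by gavage and 2 received PBS alone. Gavage was given 5 days a week over about 6 months, and the mice were named DEP 11, DEP 13, PBS 2 and PBS 3. Their age was not given in the sources used here, and no genetic change was named. Cells of the lamina propria, which lies beneath the epithelium of the gut wall, were sorted for CD11b together with Ly6C or CD64, so that the gate itself selected monocytes and macrophages.

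MS4A proteins are small membrane proteins that cross the membrane several times and sit beside receptors of immune cells. The best known relatives are CD20 on B cells, encoded by Ms4a1, and the beta chain of the high-affinity IgE receptor on mast cells, encoded by Ms4a2. Monocytes that carry Ly6C enter the gut wall from blood and mature there into resident macrophages, which lose Ly6C and make the complement component C1q. Ms4a7 and Ms4a4a are known macrophage genes of the family, while Ms4a6b is also known from T cells.

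The 5 genes lay together within 283.811 kb of chromosome 19 (build mm10, GENCODE release M21), from 11321039 to 11604849. Ms4a7 (ENSMUSG00000024672) lay at chr19:11321039-11336146 on the minus strand and Ms4a4a (ENSMUSG00000101389) at chr19:11375523-11392790 on the plus strand. Ms4a6c (ENSMUSG00000079419) lay at chr19:11469366-11482192 and Ms4a6b (ENSMUSG00000024677) at chr19:11516512-11531256, both on the plus strand. Ms4a6d (ENSMUSG00000024679) lay at chr19:11586604-11604849 on the minus strand. The 3 Ms4a6 genes are close copies of each other, which matters for counting. Of the windows of 50 bases in the longest coding transcript, 11.3% in Ms4a6c, 5.89% in Ms4a6b and 2.92% in Ms4a6d also occurred in a transcript of another gene, and none did in Ms4a7 or Ms4a4a. Within the last 400 bases, where the 3′ library reads, shared windows were found only in Ms4a6c among the 5 genes (47 of 351 windows). The sources used here do not say how reads that match several genes were counted, so part of the Ms4a6c count is uncertain. Ms4a6b overlapped the antisense gene Gm19261, which had 1 UMI in the table, and Ms4a6c overlapped BE692007, which was not analysed here.

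The promoters of Ms4a6b and Ms4a6c are shown because these 2 genes followed each other across the cells described further on. Both sequences are from RefSeq (GRCm38.p6, the assembly behind mm10), run 5′ to 3′ on the plus strand from 250 bases before to 50 bases after the start that RefSeq gives, and stand at chr19:11518309-11518608 (Ms4a6b) and chr19:11469118-11469417 (Ms4a6c). The RefSeq start of Ms4a6b, 11518559, lies 2047 bases inside the gene span given above, since GENCODE also holds a transcript that begins further upstream, and that of Ms4a6c, 11469368, lies 2 bases inside. Capitals mark the longest run the pair shares.
Ms4a6b: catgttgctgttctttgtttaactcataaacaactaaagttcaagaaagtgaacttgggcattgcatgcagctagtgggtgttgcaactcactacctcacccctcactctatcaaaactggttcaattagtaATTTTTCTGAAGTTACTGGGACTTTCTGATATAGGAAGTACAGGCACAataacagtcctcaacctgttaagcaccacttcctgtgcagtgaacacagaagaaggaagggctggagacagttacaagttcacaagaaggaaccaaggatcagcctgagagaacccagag
Ms4a6c: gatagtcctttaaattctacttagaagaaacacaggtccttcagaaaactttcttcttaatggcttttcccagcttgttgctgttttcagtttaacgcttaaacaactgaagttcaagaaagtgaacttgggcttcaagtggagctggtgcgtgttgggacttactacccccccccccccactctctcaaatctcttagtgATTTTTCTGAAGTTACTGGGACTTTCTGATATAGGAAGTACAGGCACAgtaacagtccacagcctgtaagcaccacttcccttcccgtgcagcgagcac
This run of 48 bases began at -118 in Ms4a6b and at -49 in Ms4a6c, counted from these RefSeq starts. It was found on either strand in 2 of 32544 promoters of this length, the 2 from which it was taken. A count of at least 2 was therefore fixed in advance and says nothing on what the run does. Any other pair of the member promoters in the RefSeq table shared at most 9 bases. Ms4a6d had no promoter there, so the third of the close copies could not be compared. Inside the run stands GGAAGT, the core letters that PU.1 and other ETS factors bind, which was found on either strand in 23.74% of all promoters and, among the members, also at 1 start of Ms4a7. The letters GAAAGTGAA, picked after these sequences had been read, stood outside the run in both promoters and in 0.5777% of all promoters. These matches describe letters only.

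For comparison, Ms4a7 lacks the run. Its promoter at chr19:11336097-11336396 (RefSeq, minus strand) reads as follows, with no part in capitals.
Ms4a7: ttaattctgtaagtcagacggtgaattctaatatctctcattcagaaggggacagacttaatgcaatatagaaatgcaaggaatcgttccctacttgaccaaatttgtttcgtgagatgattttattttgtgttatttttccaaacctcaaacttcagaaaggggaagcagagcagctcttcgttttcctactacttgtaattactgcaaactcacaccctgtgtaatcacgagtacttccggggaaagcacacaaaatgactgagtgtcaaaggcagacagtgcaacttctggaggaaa

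Of 6954 barcodes, 4771 had at least 1000 UMIs (unique molecular identifiers, 1 per captured transcript), from 675 in DEP 13 to 1582 in PBS 3, and 12 barcode codes recurred in more than 1 library. Markers of plasma cells, B cells or T cells were found in 209 of them, and the other 4562 are called myeloid here (632 to 1501 per mouse, median 5261 to 7096 UMIs). Levels are given as CPM, the UMIs of a gene summed over a group of barcodes and scaled to 1000000 UMIs of that group, and n is the number of mice. They compare groups for the same gene, not genes with each other. With a cut of 5 UMIs per 10000 for both Ly6c2, the gene of the monocyte marker Ly6C, and C1qa, 122 barcodes were Ly6c2-high and C1qa-low (53, 22, 19 and 28 in DEP 11, DEP 13, PBS 2 and PBS 3) and 3707 were C1qa-high and Ly6c2-low (509 to 1245 per mouse). A C1qa cut of 20 was added after the values had been seen, and gave 531 (60 to 164 per mouse) and 2698 barcodes (386 to 861 per mouse). Cuts divide a range and not types, and 213 barcodes lay at 4 to 6 for C1qa, 359 at 16 to 24 and 186 at 4 to 6 for Ly6c2.

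The classes carried the markers of their names. The summed level of 9 monocyte genes was 8665 to 9003 CPM over the mice in Ly6c2-high C1qa-low barcodes and 1270 to 1634 CPM in C1qa-high Ly6c2-low ones, while that of 10 macrophage genes was 10900 to 18175 CPM and 43755 to 53169 CPM. Each list holds 1 of the genes that set the classes. The 6 plasma cell genes summed to 1365 CPM in DEP 11, 8071 CPM in DEP 13, 1019 CPM in PBS 2 and 2745 CPM in PBS 3 in the Ly6c2-high class, against 1210 to 3352 CPM in the C1qa-high class, with 3 to 6 of the 6 found. Derl3 was at 0 in the Ly6c2-high class of 3 mice and Tnfrsf17 in both PBS mice. The level in DEP 13 stood apart. The 7 neutrophil genes summed to 90.2 to 125 CPM in the Ly6c2-high class, with 1 to 4 of them found and S100a9, Retnlg and Cxcr2 at 0 in every mouse, and to 31.4 to 38.4 CPM in the C1qa-high class. The part of these lists in the values that follow was not tested.

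Ms4a7 was the member that separated the classes most. In C1qa-high Ly6c2-low barcodes it stood at 1743 CPM in DEP 11, 1943 CPM in DEP 13, 1652 CPM in PBS 2 and 1849 CPM in PBS 3 (mean 1797 ± 126, SD, n = 4). In Ly6c2-high C1qa-low barcodes the same mice had 276, 281, 324 and 311 CPM (mean 298 ± 23.4, SD, n = 4). The classes did not overlap over the mice. Barcodes high for both genes had 286 to 403 CPM and barcodes low for both had 207 to 364 CPM. With the C1qa cut of 20, barcodes high for both stood in between, at 695, 916, 805 and 788 CPM in DEP 11, DEP 13, PBS 2 and PBS 3, although they numbered 3 in DEP 13 and at most 33 in a mouse.

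Ms4a7 rose along C1qa, most of all from a C1qa of 20 upward. It was 226 to 351 CPM in barcodes with C1qa below 5 per 10000 UMIs and 258 to 391 CPM with C1qa from 5 to below 10. From 10 to below 20 it was 345, 577, 364 and 500 CPM in DEP 11, DEP 13, PBS 2 and PBS 3, and from 20 to below 50 it was 1157, 1775, 1241 and 1796 CPM. At 50 or more it reached 2187 to 2604 CPM. In each mouse the largest ratio between neighbouring ranges was the one across a C1qa of 20, but the mean still rose from 1492 to 2431 CPM across 50, and in DEP 11 and PBS 2 that gain in CPM was the larger one. DEP 13 and PBS 3, 1 mouse of each treatment, were the higher ones from 20 to below 50. Along Ly6c2 the order was opposite, with 1652 to 1955 CPM in barcodes without a Ly6c2 UMI and 292 to 365 CPM in those with 10 or more per 10000.

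Ms4a6c went the other way. It stood at 1649.7 CPM in DEP 11, 1664 CPM in DEP 13, 1529 CPM in PBS 2 and 1392 CPM in PBS 3 in Ly6c2-high C1qa-low barcodes (mean 1559 ± 127, SD, n = 4). In C1qa-high Ly6c2-low barcodes it was 1041, 954, 1002 and 1003 CPM (mean 999.7 ± 35.7, SD, n = 4). All mice were higher on the Ly6c2 side, without overlap. The gene stayed well measured in both classes and was lower, not lost, on the C1qa side. It followed Ly6c2 in order, with 947 to 1022 CPM without a Ly6c2 UMI, 1047 to 1161 CPM above 0 to below 5, 1489.7 to 1626 CPM from 5 to below 10 and 1554 to 2003 CPM at 10 or more per 10000. The last pair of ranges overlapped between mice, although each mouse was higher at 10 or more.

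Ms4a6b resembled Ms4a6c with a wider spread. It was 877 CPM in DEP 11, 1193 CPM in DEP 13, 869 CPM in PBS 2 and 739.7 CPM in PBS 3 in Ly6c2-high C1qa-low barcodes (mean 919.5 ± 193, SD, n = 4). In C1qa-high Ly6c2-low barcodes it was 609, 589, 572 and 584 CPM (mean 589 ± 15.1, SD, n = 4). DEP 13, with 22 barcodes in the first class, had the highest value there, while PBS 2 had 19 barcodes. DEP 13 had the fewest UMIs in total, but not per barcode. Without a Ly6c2 UMI the level was 543 to 599 CPM, and at 10 or more per 10000 it was 833 to 1168 CPM, again higher in all 4 mice.

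Ms4a6d and Ms4a4a did not sort the classes. Ms4a6d stood at 423, 411, 509.7 and 321 CPM in Ly6c2-high C1qa-low barcodes of DEP 11, DEP 13, PBS 2 and PBS 3 and at 388, 510.4, 512 and 472 CPM in C1qa-high Ly6c2-low ones, with wide overlap. Ms4a4a was sparse, with 437 UMIs over all myeloid barcodes. It had 21.6, 10.0, 11.6 and 0 CPM in the Ly6c2-high class, from 7 UMIs, where the 0 of PBS 3 allows up to 29.2 CPM (3 counts), and 16.7, 16.7, 13.7 and 16.9 CPM in the C1qa-high class.

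**Figure D1:**
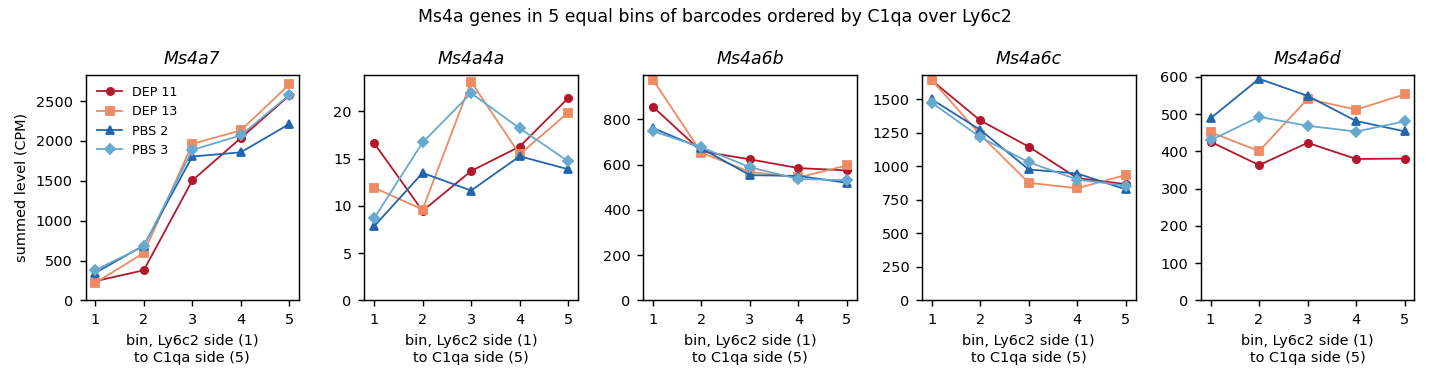
Summed level (CPM, linear axes from 0) of the 5 genes in 5 equal bins of the myeloid barcodes of each mouse, ordered from the Ly6c2 side (bin 1) to the C1qa side (bin 5); each line is 1 mouse. Ms4a7 went from 221 to 381 CPM in bin 1 to 2213 to 2709 CPM in bin 5, Ms4a6c from 1474 to 1643 CPM to 827 to 936 CPM, and Ms4a6b from 748 to 976 CPM to 520 to 597 CPM. In bin 1 both DEP mice lie above both PBS mice for Ms4a6b and Ms4a6c and below them for Ms4a7, an order that was not tested.

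The bins, ordered by log2 of (C1qa + 1) over (Ly6c2 + 1) per 10000 UMIs, showed the same course without a cut. Ms4a7 rose most between bins 2 and 3, from 379 to 689 CPM up to 1504 to 1963 CPM over the mice. Ms4a6c was at 1217 to 1342 CPM in bin 2 and 836 to 946 CPM in bin 4, so its decline was spread over more bins. Ms4a6d stayed between 363 and 594 CPM in all bins and mice.

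The classes were compared with the quasi-likelihood test of edgeR on the summed counts, with the mouse as a block and Benjamini-Hochberg adjustment over all genes. The C1qa-high Ly6c2-low class was higher than the Ly6c2-high C1qa-low class in 467 of 6690 genes (6.98%) and lower in 393 (5.87%), 12.9% in all. With the C1qa cut of 20, 34.2% of 6843 genes were called, 16% higher and 18.1% lower. Of the 5 members, 4 passed the filter within both classes, and of these Ms4a7 was called higher and Ms4a6b and Ms4a6c lower under either cut. Ms4a4a did not pass it within the Ly6c2-high class and entered through the C1qa-high class, so its levels given above stand with no test.

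Ms4a7 was higher by 2.71 on the log2 scale (SE 0.12, interval 2.48 to 2.94, adjusted p = 4.35e-110), a 6.55-fold difference. With the C1qa cut of 20 it was 2.87 (SE 0.077, adjusted p = 1.17e-17), and over all other settings it was 2.63 to 3.45. In the fit of the first cut the spread of each gene was taken from a trend over the level of all genes (an infinite prior). Its p-values lean on that assumption. The median over all tested genes was 0.11 for the first cut and 0.0050 for the added one.

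Ms4a6c was 1.44-fold lower in the C1qa-high class (log2 -0.53, SE 0.094, adjusted p = 6.71e-07) and 1.76-fold lower with the C1qa cut of 20 (log2 -0.81, SE 0.054, adjusted p = 4.99e-11). Ms4a6b was 1.43-fold lower (log2 -0.51, SE 0.11, adjusted p = 2.72e-05) and 1.52-fold lower with the added cut (log2 -0.61, SE 0.062, adjusted p = 6.78e-08). These 2 calls were less firm than that of Ms4a7. With a cut of 2 per 10000 UMIs neither passed edgeR's test (log2 -0.21 for Ms4a6c, adjusted p = 0.808; log2 -0.23 for Ms4a6b, adjusted p = 0.797). Ms4a6b also failed it when each barcode was thinned to 1000 UMIs (log2 -0.26, adjusted p = 0.412), and when no filter on low counts was used (log2 -0.34, adjusted p = 0.0523).

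Ms4a6d differed by 0.26 (interval 0.011 to 0.50, adjusted p = 0.199 in edgeR) and by 0.14 with the C1qa cut of 20 (interval -0.015 to 0.29, adjusted p = 0.166), so a difference between classes was not shown. The value moved with the setting, from 0.15 without PBS 3 to 0.42 without DEP 11, and to 0.83 with a cut of 2 (adjusted p = 0.158). It was called only when no filter on low counts was used (log2 0.43, adjusted p = 0.0265). Without DEP 11 the number of genes called fell from 860 to 556, and the calls for Ms4a7, Ms4a6b and Ms4a6c held.

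**Figure D2:**
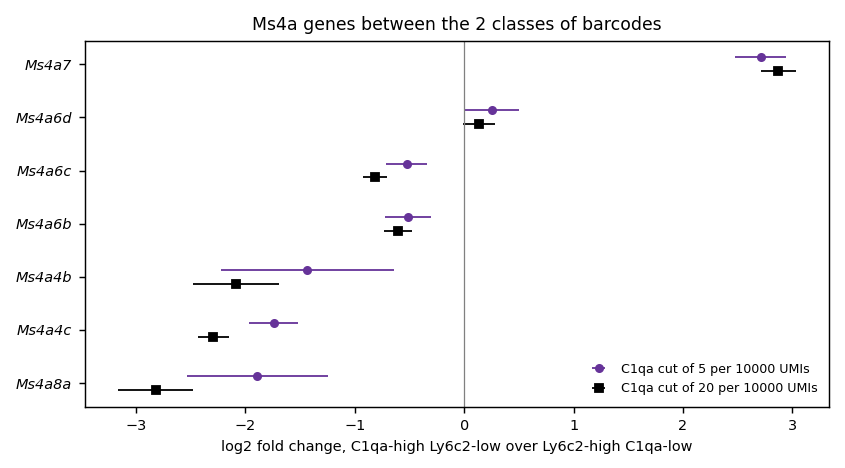
Log2 fold change (x axis, C1qa-high Ly6c2-low over Ly6c2-high C1qa-low barcodes, n = 4 mice) with 95% interval for the 7 Ms4a genes that passed the filter within each class, for the C1qa cut of 5 (circles) and of 20 (squares) per 10000 UMIs. Ms4a7 lies at 2.71 and 2.87, Ms4a6c and Ms4a6b lie between -0.81 and -0.51, and Ms4a4b, Ms4a4c and Ms4a8a lie below them.

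Detection at equal depth gave the same order for Ms4a7 and Ms4a6c. Unthinned, Ms4a7 had a UMI in 90.5% of C1qa-high Ly6c2-low barcodes (median 6248 UMIs) and 61.5% of Ly6c2-high C1qa-low ones (median 4267 UMIs). After thinning to 1000 UMIs the shares were 65.4% (95% exact interval 63.9 to 67) and 23.0% (15.8 to 31.4). Free RNA in droplets can give such a share, and plasma cell marked barcodes, of a cell type not known for the gene, were set beside the classes. In these 78 barcodes (median 21906 UMIs) Ms4a7 was found in 98.7% unthinned and 33.3% thinned (23.1 to 44.9), with 489 to 803 CPM over the mice. The Ms4a7 level of the Ly6c2-high class was below that in each mouse, and also below the 458 to 676 CPM of barcodes under 500 UMIs. Whether this level is expression was not tested, since neither free RNA nor RNA of a second cell in the plasma cell marked barcodes was measured.

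Ms4a6c was above the level of plasma cell marked barcodes in both classes. Its thinned share was 73.8% in Ly6c2-high C1qa-low and 60.3% in C1qa-high Ly6c2-low barcodes, against 41.0% in plasma cell marked ones, where its level was 286 to 339 CPM. The thinned share of Ms4a6b was 47.5%, 42.4% and 19.2% in these 3 groups, and that of Ms4a6d 34.4%, 33.8% and 14.1%. In T cell marked barcodes Ms4a6b was found in 40.6% after thinning, close to the C1qa-high class. Its level there was lower, at 341 to 510 CPM over the mice against 572 to 609 CPM. These barcodes also held Ms4a7 at 255 to 969 CPM, and the part of free RNA or of a second cell was not tested. Ms4a4a had a thinned share of 1.59% in C1qa-high Ly6c2-low barcodes and was found in 0 of 78 plasma cell marked ones, with an upper exact bound of 4.62%, too few to compare.

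**Figure D3:**
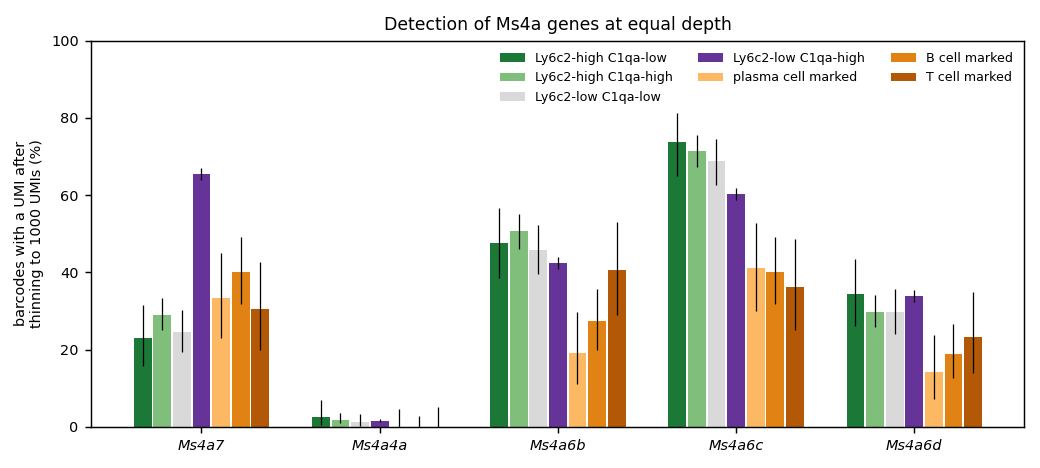
Share of barcodes (y axis, percent, from 0) with at least 1 UMI of each gene after each barcode was thinned to 1000 UMIs, pooled over the 4 mice, in the 4 classes of Ly6c2 and C1qa and in barcodes with markers of plasma, B or T cells; lines are exact 95% binomial intervals of counting error only. Ms4a7 reached 65.4% in C1qa-high Ly6c2-low barcodes and stood at 23.0% to 40.2% elsewhere, while Ms4a6c was highest, 73.8%, in Ly6c2-high C1qa-low barcodes.

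Among the other 14 Ms4a genes, 4 passed the filter. Ms4a4c, a gene of the same cluster known from blood cells, was at 846, 852, 1008 and 886 CPM in Ly6c2-high C1qa-low barcodes of DEP 11, DEP 13, PBS 2 and PBS 3 and at 263, 202, 278 and 245 CPM in C1qa-high Ly6c2-low ones. It was lower in the C1qa-high class by a log2 difference of -1.74 (adjusted p = 7.29e-51 in edgeR), more than Ms4a6c or Ms4a6b. Ms4a8a (log2 -1.89, adjusted p = 2.45e-07) and Ms4a4b (log2 -1.43, adjusted p = 0.00464) were lower as well, both under 112 CPM in each class and mouse. Ms4a14, the neighbour of Ms4a7 on the same strand, was at 11.5 to 16.3 CPM in the C1qa-high class and had 2 UMIs in the Ly6c2-high class. Like Ms4a4a, it did not pass the filter within the Ly6c2-high class, and its levels are given with no test. Ms4a10, Ms4a12, Ms4a13, Ms4a18, Ms4a2 and Ms4a5 had no UMI in myeloid barcodes, which allows up to 0.104 CPM over the 4 mice (3 counts), and Ms4a1, Ms4a3, Ms4a4d and Ms4a15 had 1 to 29.

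The CD20-like relatives Tmem176a and Tmem176b, which lie outside the Ms4a cluster, were both higher in the C1qa-high class. Tmem176a was at 282 to 436 CPM in Ly6c2-high C1qa-low and 987 to 1164 CPM in C1qa-high Ly6c2-low barcodes (log2 1.61, adjusted p = 1.75e-39 in edgeR). Tmem176b went from 526 to 739 CPM up to 1405 to 1482 CPM (log2 1.26, adjusted p = 5.78e-31). Both were far above 0 in plasma cell marked barcodes too (815 to 975 CPM and 1030.6 to 1204 CPM), above their levels in the Ly6c2-high class, so how much of those levels is free RNA is not known.

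Of a list of 7 receptor, adaptor and signalling genes of immune cells, 5 passed the filter. With the first cut none was higher and 1 was lower, where 12.9% of all genes were called, with a median of -0.12 against 0.11 over all genes. The one called was Tyrobp, the adaptor DAP12 (log2 -0.34, adjusted p = 3.22e-04 in edgeR). With the C1qa cut of 20, Trem2, a receptor that signals through DAP12, was higher (log2 0.58, adjusted p = 8.31e-05), while Tyrobp (log2 -0.53) and Card9 (log2 -1.07) were lower. Under this cut 34.2% of all genes were called, and the median was -0.25 against 0.0050 over all genes. Fcer1g, the Fc receptor gamma chain, and the kinase gene Syk were called under neither cut.

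The genes with the most similar course were sought over 15 sums of mouse and class with at least 20 barcodes each, among 5962 genes, by Pearson's r of log2(CPM + 1). Ms4a7 was most like Pf4 (0.98), a chemokine gene, Itm2b (0.98) and Zmynd15 (0.97). Ms4a6c was most like Gm9733 (0.97), Plac8 (0.96), a gene of the monocyte list, and Eif3h (0.96). Ms4a6b was most like Lyz1 (0.91), a lysozyme gene, Sgk3 (0.90) and Tpd52 (0.90). Ms4a6d had no gene above 0.81, the value of Il1rn, the interleukin 1 receptor antagonist, followed by P2ry13 (0.80) and Fcgr2b (0.79). Ms4a4a was most like low genes of 12.1 to 15.1 CPM (Tmem97, Tmem126b and Uchl4, 0.94 to 0.95). Between members, r was 0.86 for Ms4a6b with Ms4a6c, -0.90 for Ms4a6c with Ms4a7 and -0.68 for Ms4a6b with Ms4a7. The sums share mice, depth and the classes, so these values describe them and carry no test.

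Whether DEP changed the members was asked in all myeloid barcodes first. Ms4a7 was at 1501 CPM in DEP 11, 1695 CPM in DEP 13, 1499 CPM in PBS 2 and 1672 CPM in PBS 3 (mean 1598 ± 137 for DEP and 1586 ± 123 for PBS, SD, n = 2 each). The spread within a treatment was larger than the difference between them. Ms4a6c was at 1131, 1055, 1064 and 1054 CPM, and Ms4a6d at 393, 500.03, 510.4 and 466 CPM in the same order, and the treatments overlapped. Ms4a6b, at 644, 644, 597 and 600.5 CPM, was the member whose DEP mice were both above both PBS mice by more than the spread of each pair (mean 644.0 ± 0.447 and 598.5 ± 2.77, SD, n = 2 each). Ms4a4a was at 15.8, 16.5, 12.8 and 16.5 CPM.

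No member was called. Of 6539 genes edgeR called 0 at a false discovery rate of 5% (0%), with 170 at an unadjusted p under 0.05, and DESeq2 called 4. The log2 difference of DEP over PBS was 0.013 for Ms4a7 (interval -0.35 to 0.37), 0.11 for Ms4a6b (-0.22 to 0.44), 0.046 for Ms4a6c (-0.27 to 0.37), -0.12 for Ms4a6d (-0.52 to 0.27) and 0.14 for Ms4a4a (-0.37 to 0.65), each with an adjusted p of 0.999. The intervals do not exclude changes of these sizes with 2 mice a group, where an exact permutation test of a single gene cannot go below p = 0.333. When 1 mouse was left out, 16 to 27 genes were called, and none was a member.

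Within the classes the result was alike. In C1qa-high Ly6c2-low barcodes, where Ms4a7 had 1743 and 1943 CPM in DEP mice and 1652 and 1849 CPM in PBS mice, the log2 difference was 0.078 (interval -0.28 to 0.44), and edgeR called 0 of 6721 genes (0%; 209 had an unadjusted p under 0.05, and DESeq2 called 6). Ms4a6b, Ms4a6c, Ms4a6d and Ms4a4a lay between -0.12 and 0.12. In Ly6c2-high C1qa-low barcodes edgeR called 0 of 5047 genes (0%; 208 had an unadjusted p under 0.05, and DESeq2 called 0). There Ms4a6b differed by 0.35 (interval -0.20 to 0.90), a value that was 0.12 without DEP 13, 0.59 without DEP 11 and 0.63 with a cut of 2. Ms4a6c differed by 0.18 (-0.31 to 0.67), Ms4a6d by 0.016 (-0.60 to 0.63) and Ms4a7 by -0.20 (-0.84 to 0.44), all with an adjusted p near 1. Over the alternative settings these values ran from 0.13 to 0.61, from -0.26 to 0.72 and from -0.38 to 0.29. Ms4a4a did not pass the filter.

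The bins were not tested between the treatments, and their values are given as a description. With 2 mice a group, complete separation in either direction has a probability of 0.333 for any gene whose order is random. The share of all genes that separated in this way was not counted. In bin 1 Ms4a6c was at 1640.2 CPM in DEP 11, 1643 CPM in DEP 13, 1499 CPM in PBS 2 and 1474 CPM in PBS 3, and Ms4a6b at 856, 976, 762 and 748 CPM. Both were higher in the DEP mice, while the low Ms4a7 values there were smaller. The Ms4a7 values of bin 1 were 242 CPM in DEP 11, 221 CPM in DEP 13, 345 CPM in PBS 2 and 381 CPM in PBS 3, and in Ly6c2-high barcodes under the C1qa cut of 20 they were 248, 254, 289 and 369 CPM. The treatments did not overlap in these groups. In bin 2 the order of Ms4a6b was opposite to that of bin 1, with 659 and 654 CPM in DEP 11 and DEP 13 and 672 and 677 CPM in PBS 2 and PBS 3. Ms4a7 was again lower in both DEP mice there (378 and 594 CPM against 689 and 678 CPM). Ms4a6d was lower as well (363 and 401 CPM against 594 and 493 CPM), while in bin 1 its means were 438 ± 18.0 CPM for DEP and 459 ± 41.7 CPM for PBS (SD, n = 2 each). In bins 3 and 4 the treatments overlapped for all 5 members. In bin 5, at the C1qa end, both DEP mice were above both PBS mice for Ms4a6b, with 575 and 597 CPM against 520 and 531 CPM. The same held there for Ms4a6c (867 and 936 CPM against 827 and 856 CPM), while Ms4a7 and Ms4a6d overlapped. The sparse Ms4a4a was higher in both DEP mice in bins 1 and 5 and lower in bin 2. The log2 difference of Ms4a7 in Ly6c2-high barcodes under the C1qa cut of 20 was -0.38 (interval -0.84 to 0.071, adjusted p = 1 in edgeR), with 3 of 5499 genes called (0.0546%). Barcodes with fewer than 500 UMIs, which can hold free RNA or broken cells, had the same order, 458, 516, 550.4 and 676 CPM, and the Ms4a7 levels of the Ly6c2 side lay below those of plasma cell marked barcodes in each mouse. The part of free RNA in the Ms4a7 difference was not tested.

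**Figure D4:**
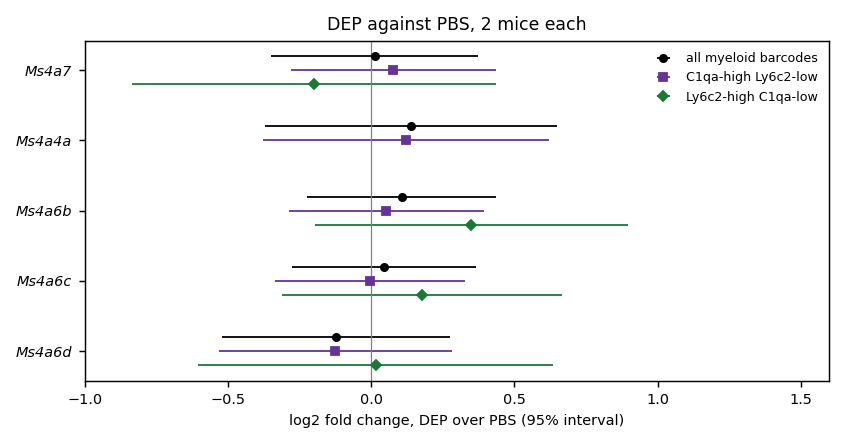
Log2 fold change of DEP over PBS (x axis, 2 mice each) with 95% interval for the 5 genes in all myeloid barcodes (circles), C1qa-high Ly6c2-low barcodes (squares) and Ly6c2-high C1qa-low barcodes (diamonds; Ms4a4a did not pass the filter there). Every interval includes 0, and the values lie between -0.20 and 0.35.

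The difference of the DEP effect between C1qa-high and Ly6c2-high barcodes was tested directly. Of 6690 genes 10 were called by edgeR (0.149%), none of them a member, and DESeq2 called 0. With the C1qa cut of 20 it was 4 of 6843 (0.0585%), again without a member. Without PBS 2 the count of 10 fell to 4. For Ms4a7 the DEP effect was larger in the C1qa-high class by a log2 difference of 0.19 (interval -0.33 to 0.72, adjusted p = 1) and by 0.45 with the added cut (interval 0.20 to 0.71, adjusted p = 0.595). The second value failed the adjustment over all genes and involves the low levels just described. The differences of Ms4a6b (-0.33), Ms4a6c (-0.23) and Ms4a6d (-0.27) were within intervals that included 0. Over the alternative settings they ran from -0.71 to -0.15, from -0.78 to -0.12 and from -1.06 to 0.061. The median over all tested genes was -0.10, and 0.023 with the added cut.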

How the data were processed

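Colon lamina propria cells of 4 mice (2 DEP, 2 PBS) were sorted, loaded in a well of their own for each mouse and sequenced with the 10x 3′ v2 kit. The authors deposited UMI counts, whole numbers per gene and barcode that had not been normalized, for all mice in 1 table, where the suffix of a barcode names its mouse. The submitters' processing notes name Cell Ranger, STAR 2.6.1a, R 3.5.1 and mm10, while the annotation and barcode filter are not given in these sources. The totals were 4489342 to 10293703 UMIs per mouse, lowest in DEP 13, which also had the fewest barcodes. Symbols came from GENCODE release M21 (28339 of 28692 genes).

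Barcodes with at least 1000 UMIs were kept, and those with at least 2 genes and 3 UMIs of the T, B or plasma cell list were set apart. Doublets called by scrublet (scanpy 1.11.5; 0.759% to 3.26% of barcodes per mouse) were kept. Counts were summed per mouse, or per mouse and class, and tested with edgeR 4.0.16 (R 4.3.3, TMM) at a false discovery rate of 5%, where a gene had to exceed 1 CPM in 2 or more sums and have a UMI in 5% or more of the barcodes. The mouse was the replicate, and a block where classes were compared. DESeq2 1.42.0, other cuts, filters, scalings and thinning were alternatives. The scripts were tested on simulated data. Shares carry 95% exact binomial intervals, which describe counting error alone. Named genes were the members, the other Ms4a genes, fixed lists (relatives; receptors and adaptors; monocyte and macrophage markers) and, per member, the 3 genes with the highest correlation. Members and lists were chosen with earlier results of these data known. The C1qa cut of 20 was added after the data were seen.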

Additional observations from a re-analysis of the deposited data

Results flagged for a closer look

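With the first cut, 1 result among the named genes had a DEP effect that differed between the classes by its own test. Hp, the haptoglobin gene of the monocyte list, had a DEP effect that was lower in C1qa-high Ly6c2-low than in Ly6c2-high C1qa-low barcodes by -1.12 on the log2 scale (interval -1.61 to -0.62, adjusted p = 0.0082 in edgeR). The DEP over PBS difference was -0.58 in the first class and 0.48 in the second, and neither passed the test on its own (adjusted p = 0.998 and 1). With the C1qa cut of 20 the difference of effects was -1.11 (adjusted p = 0.0425). C1qa and C1qb were called under that cut too. However, C1qa sets the classes and C1qb encodes a chain of the same protein complex, so neither is read as a result. Ly6c2 sets the classes as well, and with the first cut its DEP difference was -0.55 in C1qa-high barcodes. The 7 monocyte genes tested there, Hp and Ly6c2 among them, had a median of -0.45, against -0.0079 over all genes. In Ly6c2-high barcodes the medians were -0.016 for the 9 tested and 0.0049 over all genes. Whether the Hp value reflects a different remainder of monocytes in the class was not tested. The fit of the first cut took the spread of each gene from a trend over the level of all genes (an infinite prior). The Hp difference kept its sign under all 15 alternatives, from -1.53 to -0.74, but lost its call with DESeq2 (adjusted p = 0.9997), without the mouse as a block (0.9752), after thinning (0.632), with a cut of 2 (0.748) or 10 (0.0580), and without DEP 11 (-0.92, adjusted p = 1), DEP 13 (-1.26, 0.0553) or PBS 2 (-0.74, 0.995). DESeq2 called 0 genes in this comparison. Hp was much lower in the C1qa-high class in any case (log2 -2.63), and no Ms4a gene was called beside it.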

How the results depend on the processing

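Between the classes, 860 genes were called and 539 under DESeq2, 211 after thinning, 247 with a cut of 2, 2338 with the C1qa cut of 20 and 556 to 742 with 1 mouse left out. Without the mouse as a block 635 were called, and Ms4a7 (2.72), Ms4a6b (-0.53) and Ms4a6c (-0.53) kept their calls. No paired analysis was possible for DEP against PBS because the DEP and PBS mice share no replicate numbers. DEP against PBS gave, in place of 0, 4 calls under DESeq2, 82 without a filter on low counts and 16 to 27 with 1 mouse left out in all myeloid barcodes, and 6, 89 and 7 to 23 in C1qa-high ones. In Ly6c2-high barcodes it gave 12 without that filter, 7 with at least 2000 UMIs, 5 under the mitochondrial and gene number filter, 3 after thinning, 1 with a cut of 2, 2 with a cut of 10, 3 with the C1qa cut of 20 and 6 to 14 with 1 mouse left out. The interaction gave, in place of 10, 0 under DESeq2, 0 without the block, 2 after thinning, 2 with a cut of 2, 5 with a cut of 10, 4 with the C1qa cut of 20 and 4 to 11 with 1 mouse left out.

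No member was called for DEP under any setting, and 24 of 258 alternative DEP values of members changed sign. In all myeloid barcodes Ms4a7 was -0.012 without the low-count filter and -0.011 with lymphocyte-marked barcodes kept, and Ms4a6c was -0.022 after thinning. In C1qa-high barcodes Ms4a6c was 0.0026 with at least 2000 UMIs, 0.0052 with a cut of 2 and 0.0068 with the C1qa cut of 20. In Ly6c2-high barcodes Ms4a7 was 0.24 after thinning and 0.29 with a cut of 2, and Ms4a6d was -0.066 with the C1qa cut of 20. The interaction of Ms4a7 was -0.15 after thinning and -0.41 with a cut of 2. Between classes Ms4a6d was -0.082 after thinning. Ms4a4a, which has no test there, was -0.013 with a cut of 10 in place of 0.40.

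With 1 mouse left out, the DEP difference in all myeloid barcodes ran from -0.11 to 0.13 for Ms4a7, -0.073 to 0.37 for Ms4a4a and -0.35 to 0.069 for Ms4a6d. In C1qa-high barcodes it ran from -0.038 to 0.20 for Ms4a7, -0.063 to 0.32 for Ms4a4a, -0.00090 to 0.11 for Ms4a6b, -0.045 to 0.037 for Ms4a6c and -0.37 to 0.090 for Ms4a6d. For Ms4a6d it ran from -0.26 to 0.35 in Ly6c2-high barcodes and from -0.55 to 0.061 in the interaction. The cause of these changes was not tested. A lone mouse in an arm was assumed to vary like the others. Ms4a4a rests on few UMIs in all groups, and the 19 to 53 Ly6c2-high barcodes per mouse limit each comparison with that class.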

Other observations

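The lymphocyte-marked barcodes left out of the comparisons also held Ms4a genes. Ms4a1, the CD20 gene, which was not used to mark B cells here, had 88 of its 118 UMIs in the 132 B cell marked barcodes and was found in 32.6% of them, against 0.570% of myeloid barcodes. Its level there was 25.1 CPM in DEP 11, 69.9 CPM in DEP 13, 48.0 CPM in PBS 2 and 44.7 CPM in PBS 3. Ms4a4b, known from T cells, was at 106, 82.5, 321 and 141 CPM in the 69 T cell marked barcodes of the same mice and at 19.2 to 24.3 CPM in myeloid ones as a whole. Within these it was higher in Ly6c2-high C1qa-low barcodes, at 47.5, 40.1, 69.5 and 48.7 CPM, below the T cell marked value in each mouse. Ms4a2, the gene of the IgE receptor beta chain, had no UMI in myeloid barcodes, where 6 of 7 mast cell genes were also at 0 and Kit was the one found.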
